A study of Mus musculus with 25 samples.

Results

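The genes described here are the liver transcripts of the cholesterol synthesis pathway that the transcription factor SREBP2 controls, with the proteins that regulate SREBP2 and the sterol transport genes Stard4 and Npc1l1. They were chosen by name: 28 gene symbols, all of which had values, among 17838 genes with a value above 0. Of these, 25 were among the 9372 genes that were tested, and Fdps, Mbtps2 and Npc1l1 lay below the filter of at least 1 RPKM (reads scaled by gene length and by library depth) in at least 5 of 25 libraries. The study joined C57BL/6 mice in pairs for 5 weeks by parabiosis, in which both animals come to share a circulation, and asked how the liver of an old mouse differs with the age and the Manf genotype of its partner. Manf encodes a secreted protein made under stress of the endoplasmic reticulum (ER). Liver RNA came from 5 mice in each of 5 groups. Young WT livers were from 5-month-old wild-type mice joined to an old mouse, and young ManfHet livers were from 5-month-old mice that carry the ManfHet genotype and were likewise joined to an old mouse. All old mice were wild type and 21 months old. They were joined to another old mouse (old-old livers), to a young WT mouse (old livers with WT partners) or to a young ManfHet mouse (old livers with ManfHet partners). No group of unjoined mice was analysed here, and the labels do not give the partner of each individual mouse, what sex the mice were, or when in the day the livers were taken.

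Cholesterol is built from acetyl-CoA. The mevalonate steps make isoprene units, farnesyl groups are joined to squalene and closed to lanosterol, and a series of demethylations, isomerisations and reductions turns lanosterol into cholesterol. SREBP2 is held in the ER by SCAP and the INSIG proteins when membranes hold enough sterol. When sterol falls, SCAP carries SREBP2 to the Golgi, where proteases release a fragment that enters the nucleus and turns on nearly the whole pathway, so that its transcripts in liver are known to move together with the sterol state and with feeding.

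The libraries rested on 21.8 to 27.59 M (mega) reads each, recovered from the spacing of low values. Old-old libraries (22.84 to 24.21 M) all lay below the young WT (24.23 to 25.89 M) and WT-partner libraries (24.28 to 26.95 M) and overlapped the young ManfHet (23.27 to 25.9 M) and ManfHet-partner libraries (21.8 to 27.59 M). The part of depth in the differences of old-old livers was not tested. Libraries of a group correlated at 0.967 to 0.992 across genes. Manf stood at 4.47 ± 1.11 RPKM in young ManfHet livers and 15.3 ± 6.47 RPKM in young WT livers (SD, n = 5 each), with no overlap (3.25 to 5.94 against 9.78 to 24.6). In the old livers, all wild type, Manf read 8.86 ± 2.53 RPKM with old partners (5.90 to 12.1), 17.6 ± 2.46 RPKM with WT partners (13.7 to 20.3) and 7.12 ± 1.81 RPKM with ManfHet partners (4.96 to 9.52). The old-old and ManfHet-partner ranges reach into that of young ManfHet livers. The tissue label fitted the markers: Alb, the main secreted protein of hepatocytes, read 11140 to 52170 RPKM in the 25 libraries. Old livers with ManfHet partners were low in markers of Kupffer, sinusoidal endothelial and stellate cells against both other old groups. Their summed level of 8 Kupffer cell markers ran from 60.6 to 180 RPKM, against 204 to 558 RPKM in old-old livers and 196 to 368 RPKM in old livers with WT partners. They overlapped young WT livers (144 to 299 RPKM) and lay just below young ManfHet livers (184 to 262 RPKM). In bulk tissue, fewer cells of a type and less RNA per cell cannot be told apart. Against old-old livers 85 genes were higher and 2126 lower there, and the median of all genes was -0.14 on the log2 scale. After median-of-ratios scaling the median was 0.01, with 331 genes higher and 604 lower.

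Promoters are shown for genes with large differences between groups among those with an entry, because SREBP2 acts on the proximal promoter together with the factors NF-Y and Sp1. RefSeq (GRCm38.p6, mm10) gave a promoter entry for 24 of the 28 genes. Each stretch below runs from 180 bases before to 20 after the start, 5′ to 3′ on the strand of the gene. Capitals mark CCAAT, the NF-Y motif, on either strand (ATTGG when reversed) and, in Hmgcs1, a match to TCACNCCAC, the core of the sterol regulatory element. Mbtps1 is shown as a promoter with neither motif. Ggps1, Lbr and Ebp, which did not pass in any comparison, held 3, 2 and 2 CCAAT matches, and Acat2, which rose in old livers with ManfHet partners, held none.
Hmgcs1 (chr13:119690171-119690370, + strand): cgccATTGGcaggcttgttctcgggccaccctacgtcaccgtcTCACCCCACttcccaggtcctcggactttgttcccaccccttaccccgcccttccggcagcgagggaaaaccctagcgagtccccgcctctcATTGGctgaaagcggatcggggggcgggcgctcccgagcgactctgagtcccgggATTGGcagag
Mvd (chr8:122443403-122443602, - strand): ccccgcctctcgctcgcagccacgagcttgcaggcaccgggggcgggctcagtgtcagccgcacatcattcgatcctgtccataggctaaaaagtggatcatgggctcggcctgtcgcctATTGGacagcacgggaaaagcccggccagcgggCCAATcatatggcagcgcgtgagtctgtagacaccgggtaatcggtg
Idi1 (chr13:8885426-8885625, + strand): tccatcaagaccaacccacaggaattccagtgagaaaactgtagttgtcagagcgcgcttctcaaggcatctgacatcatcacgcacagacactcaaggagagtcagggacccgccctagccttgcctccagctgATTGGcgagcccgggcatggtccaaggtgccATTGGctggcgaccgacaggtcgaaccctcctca
Cyp51 (chr5:4104678-4104877, - strand): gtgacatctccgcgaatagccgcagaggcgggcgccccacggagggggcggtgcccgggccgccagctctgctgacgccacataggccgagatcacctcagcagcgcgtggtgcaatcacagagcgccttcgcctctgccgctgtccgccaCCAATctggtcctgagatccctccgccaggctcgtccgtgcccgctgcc
Nsdhl (chrX:72918341-72918540, + strand): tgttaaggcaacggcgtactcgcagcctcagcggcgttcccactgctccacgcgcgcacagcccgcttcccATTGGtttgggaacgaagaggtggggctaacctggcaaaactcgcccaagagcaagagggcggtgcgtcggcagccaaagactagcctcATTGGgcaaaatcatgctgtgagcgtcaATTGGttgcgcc
Mbtps1 (chr8:119558742-119558941, - strand): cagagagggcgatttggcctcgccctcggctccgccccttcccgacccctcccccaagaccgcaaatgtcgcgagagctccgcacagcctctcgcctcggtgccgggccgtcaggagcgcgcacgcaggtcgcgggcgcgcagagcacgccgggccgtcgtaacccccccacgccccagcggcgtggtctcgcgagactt

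Within 250 bases before to 50 after the start, CCAAT on either strand was found in 20 of the 24 genes (83.3%), against 41.1% of 27025 genes with a promoter entry. Acat2, Scap, Mbtps1 and Mbtps2 had none. GGGCGG, the Sp1 motif, was also found in 20 of 24 (83.3%, against 38.2% of all genes). The E-box CACGTG was found in 5 of 24 (20.8%, against 8.09%). TCACNCCAC was found in Hmgcs1 alone (1 of 24, against 1.44% of all genes), and sterol elements with other letters were not searched. A match is only a match of letters in this window. The map of motif positions shows where the matches lay.

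**Figure D1:**
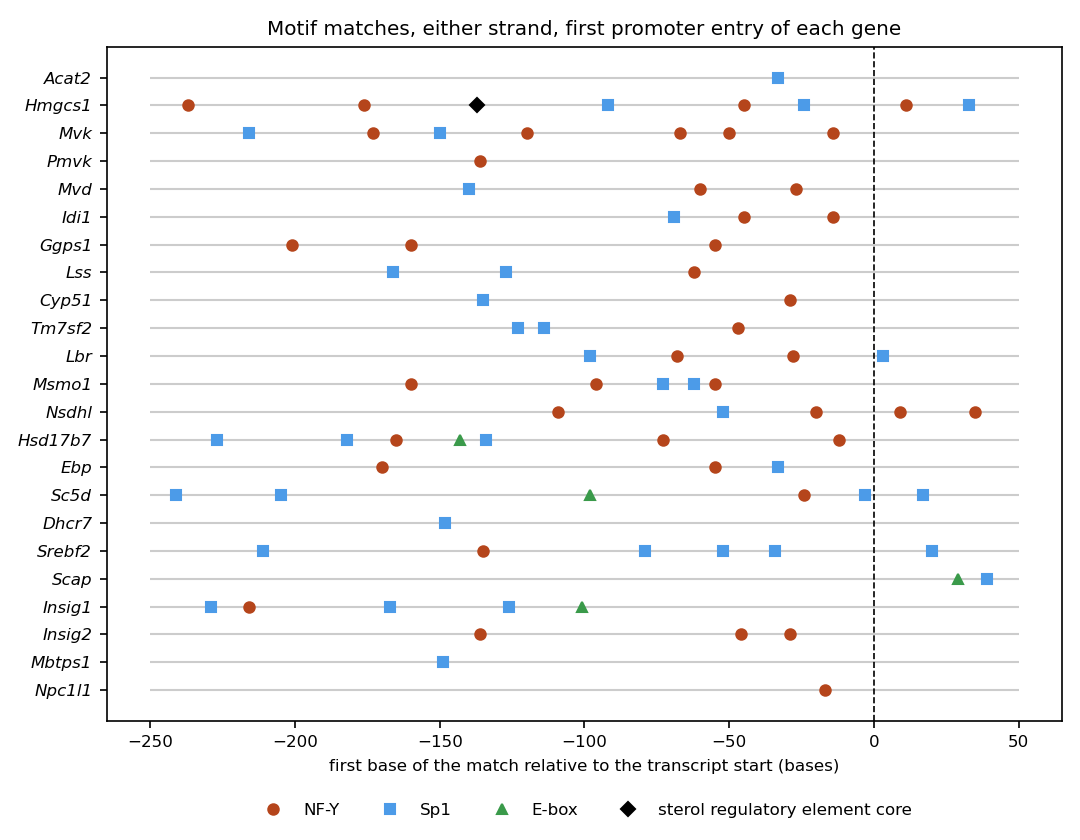
Positions of motif matches (either strand) in the first promoter entry of each gene, as bases from the transcript start on the horizontal axis, with 1 line per gene. NF-Y (circles) and Sp1 (squares) matches lie in most lines, and the single sterol regulatory element core (diamond) is in Hmgcs1; genes with no match in their first entry or with no entry are not drawn.

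Most genes of the pathway were lowest in the same groups. Of the 25 tested genes, 19 had their lowest 2 group means in young ManfHet and old-old livers. The highest group mean was that of old livers with ManfHet partners for 17 genes, of young WT livers for 5, of old livers with WT partners for 2 and of old-old livers for 1 (Mbtps1). The exceptions among the lowest groups were Ggps1, Lbr, Scap, Insig2, Mbtps1 and Stard4. These orders of group means were not counted over all tested genes. Averaged over the 25 genes, the log2 level was 4.05 ± 0.24 in young WT livers, 3.92 ± 0.41 in old livers with WT partners and 4.10 ± 0.24 in old livers with ManfHet partners. It was 3.31 ± 0.32 in young ManfHet and 3.40 ± 0.26 in old-old livers (each with its SD over 5 livers, on the scale of log2 of RPKM plus 0.5). The first 3 of these groups overlap with one another, as do the last 2. No library mean of the last 2 groups (2.89 to 3.65) reached the lowest of the old livers with ManfHet partners (3.82), whereas old livers with WT partners reached down to 3.39 and young WT livers to 3.62.

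**Figure D2:**
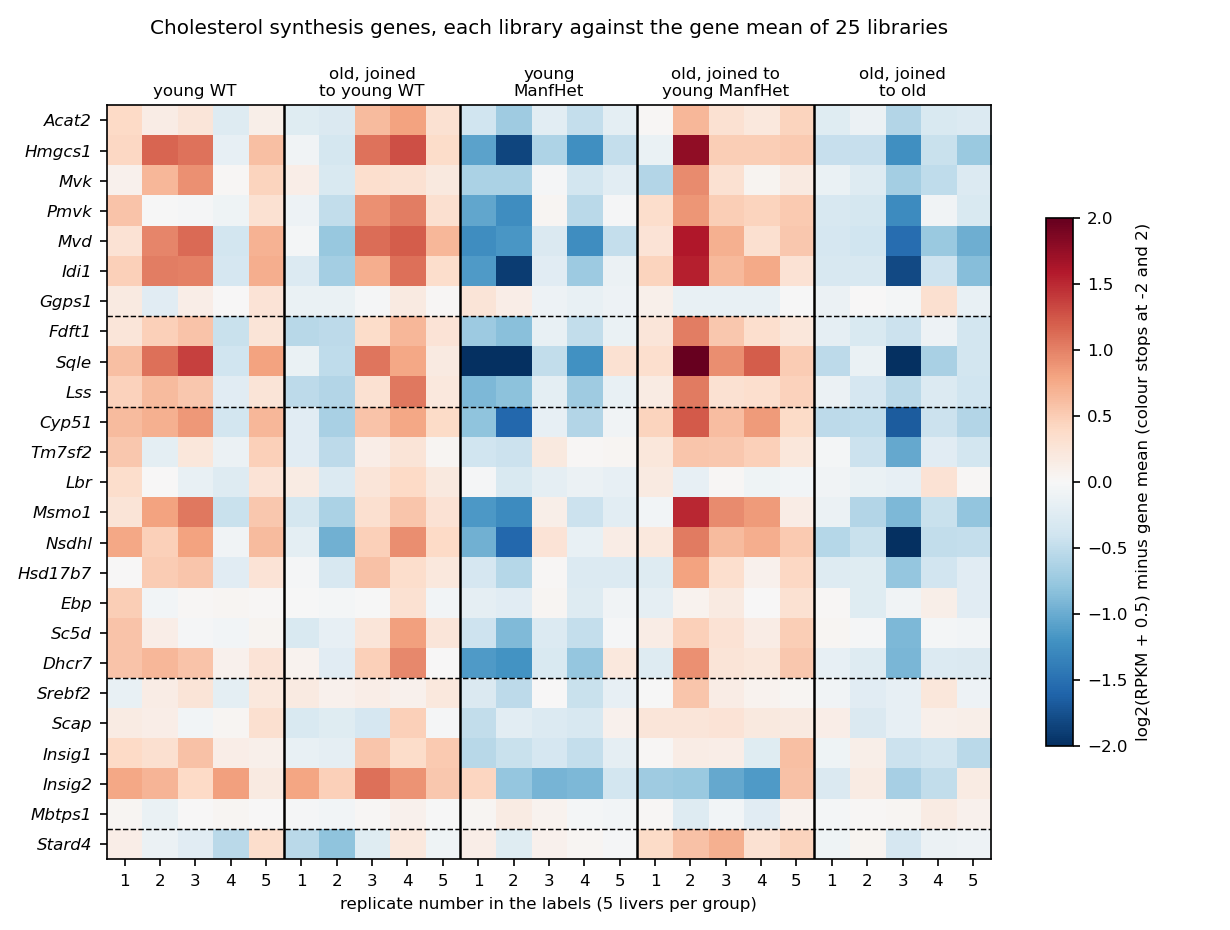
Level of 25 tested genes (rows, by role, dashed lines between roles) in 25 libraries (columns, by group), as log2 of RPKM plus 0.5 minus the mean of the gene. Young ManfHet and old-old columns are mostly blue (below the mean) and old livers with ManfHet partners mostly red, while Ggps1, Lbr, Ebp and Mbtps1 vary little and Insig2 follows another order.

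Sqle, squalene epoxidase, a slow step of the pathway, was the widest-ranging gene. In young livers, Sqle read 9.19, 13.2, 16.0, 4.33 and 10.7 RPKM with the WT genotype and 0.9745, 0.607, 4.04, 2.26 and 7.34 RPKM with the ManfHet genotype. Old-old livers had Sqle at 3.93, 5.34, 0.916, 3.58 and 4.44 RPKM, and old livers with WT partners at 5.33, 4.01, 12.8, 10.4 and 6.70 RPKM. With ManfHet partners, Sqle read 7.52, 25.8, 11.7, 14.2 and 8.59 RPKM in the old livers. These last 5 livers all lay above the old-old livers, and the young groups overlapped through the highest ManfHet and the lowest WT liver.

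Hmgcs1, which makes HMG-CoA at the entry of the mevalonate steps, split the livers without overlap. Young livers had Hmgcs1 at 57.3, 97.2, 92.1, 38.4 and 65.3 RPKM (WT) and 20.3, 11.7, 28.04, 18.2 and 30.7 RPKM (ManfHet). In old-old livers Hmgcs1 read 31.0, 31.2, 18.1, 31.4 and 25.6 RPKM. Old livers had Hmgcs1 at 41.2, 33.7, 91.8, 106 and 55.5 RPKM with WT partners and 39.2, 149, 61.0, 60.8 and 62.1 RPKM with ManfHet partners. The highest young ManfHet or old-old liver, at 31.4 RPKM, lay below the lowest liver of the other groups, at 33.7 RPKM. How many of all tested genes split in this way was not counted.

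Mvd, which decarboxylates mevalonate pyrophosphate to the isoprene unit, was lower in level and similar in order. Young livers had Mvd at 6.63, 10.99, 12.2, 4.03 and 8.93 RPKM (WT) and 1.97, 2.10, 4.25, 1.97 and 3.67 RPKM (ManfHet). Among old livers, Mvd read 4.11, 3.92, 1.53, 2.97 and 2.47 RPKM with an old partner, 5.16, 2.94, 12.1, 12.9 and 8.73 RPKM with a WT partner and 6.57, 17.1, 9.08, 6.75 and 7.996 RPKM with a ManfHet partner. The old livers with ManfHet partners lay above all old-old and all young ManfHet livers. Nsdhl, one of the enzymes that strip methyl groups from the sterol nucleus, had a single very low library. Old-old livers had Nsdhl at 11.9, 13.0, 3.71, 12.6 and 12.8 RPKM, below every young WT liver (30.8, 25.1, 31.5, 17.1 and 28.1 RPKM). In old livers with ManfHet partners Nsdhl read 20.7, 37.2, 28.1, 29.9 and 25.9 RPKM, all above the old-old group. Young ManfHet livers had Nsdhl at 8.93, 5.70, 21.7, 16.1 and 19.8 RPKM and old livers with WT partners at 15.6, 8.98, 24.99, 34.6 and 23.7 RPKM, and both overlap the other groups.

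**Figure D3:**
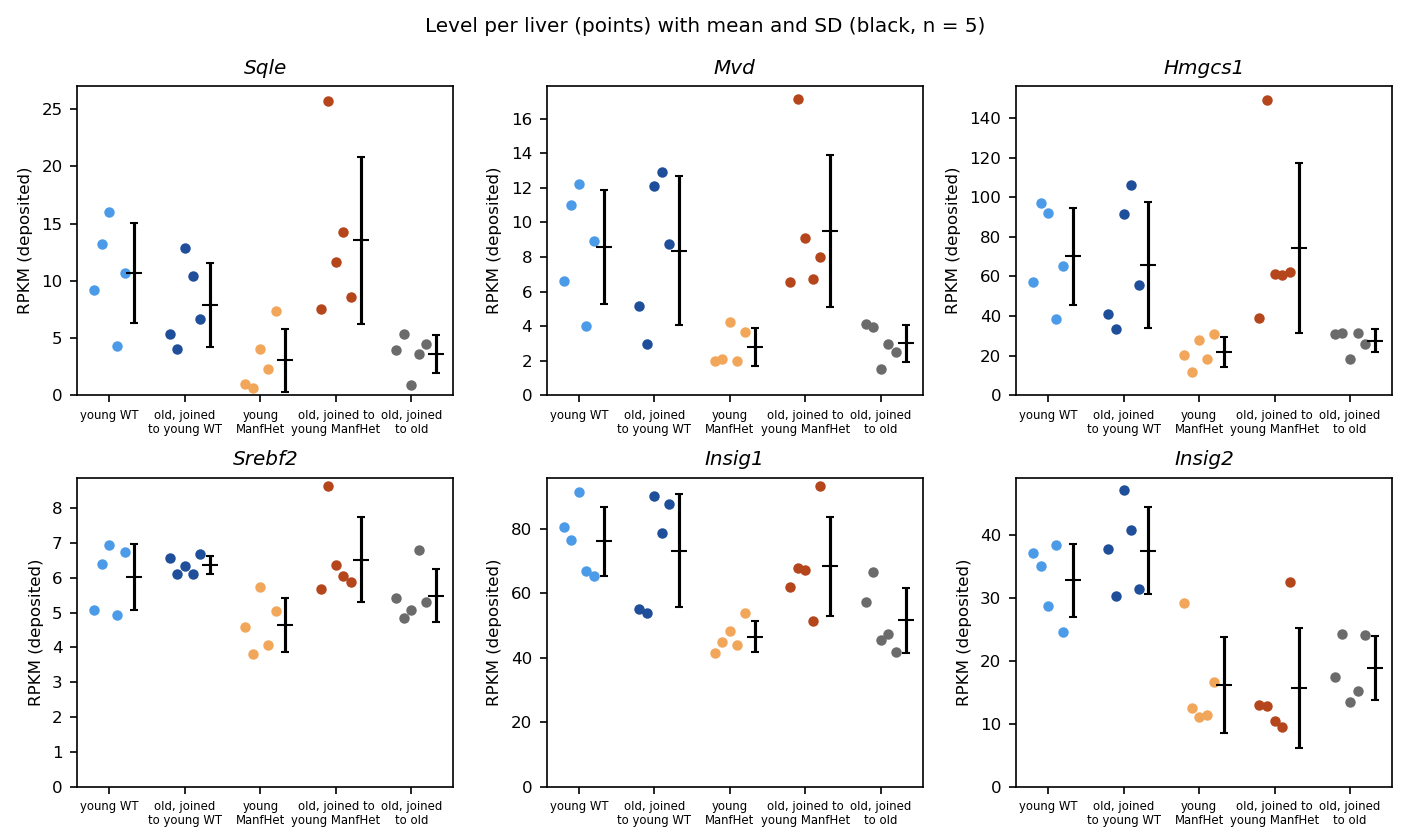
RPKM of 3 enzymes (top) and 3 regulators (bottom) in each liver (points) with mean and SD (n = 5) by group. Hmgcs1 does not overlap between the low groups (young ManfHet and old-old) and the others, Srebf2 stays between 3.81 and 8.64 RPKM in all 25, and Insig2 is low in 4 of 5 old livers with ManfHet partners.

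The pathway was higher in old livers whose partner was ManfHet than in old-old livers. Of the 25 tested genes 15 rose and 0 fell, where 0.907% of all tested genes rose and 22.7% fell (limma, adjusted p under 0.05). The median over the 25 genes was 0.66, against -0.14 over all genes. In 15 genes all 5 livers lay above all 5 old-old livers, which was so for 0.459% of tested genes (12.2% lay wholly below). After median-of-ratios scaling 19 of the 25 rose, the added genes being Mvk (adjusted p = 0.0444), Sc5d (0.0426), Srebf2 (0.38 ± 0.12, 0.0463) and Insig1 (0.56 ± 0.17, 0.0326). The last 3 also passed by voom.

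Of the mevalonate steps, 5 of 7 tested genes rose. Mvd went from 3.00 ± 1.06 to 9.50 ± 4.38 RPKM (SD, n = 5 each), a log2 difference of 1.49 ± 0.35 (SE, adjusted p = 0.00523). Idi1, which isomerises the isoprene unit, rose by 1.48 ± 0.37, Hmgcs1 by 1.30 ± 0.34, Pmvk, a mevalonate pathway kinase, by 1.00 ± 0.27 and Acat2, which condenses acetyl-CoA, by 0.64 ± 0.18. Mvk, the other kinase, was at 0.55 ± 0.21 (adjusted p = 0.0583). Ggps1 makes geranylgeranyl groups for proteins and not for sterols, and was at -0.08 ± 0.10 (95% interval -0.29 to 0.13).

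All 3 genes of the squalene and lanosterol steps rose. Sqle went from 3.64 ± 1.66 to 13.6 ± 7.32 RPKM (1.77 ± 0.48, adjusted p = 0.0113). Lss, which closes the ring to lanosterol, rose by 0.79 ± 0.24 and Fdft1, squalene synthase, by 0.75 ± 0.22. Exons of Fdft1 share 774 bases with Ctsb on the opposite strand, and the strand setting of the counting is not given. Opposite-strand exons also overlap those of Scap (985 bases), Hmgcs1 (557), Lbr (440), Lss (381), Idi1 (323), Ggps1 (257) and Cyp51 (166).

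After lanosterol, 6 of 9 genes rose. Cyp51, the lanosterol demethylase, rose from 12.7 ± 3.68 to 34.6 ± 8.90 RPKM (1.44 ± 0.30, adjusted p = 0.00330). Nsdhl rose by 1.44 ± 0.36, Msmo1, the oxidase of the same demethylation, by 1.25 ± 0.32 and Hsd17b7, its reductase, by 0.66 ± 0.18. Dhcr7, which reduces a double bond of the nucleus, rose by 0.71 ± 0.25 (adjusted p = 0.0427). Tm7sf2 and Lbr can both reduce the bond that Cyp51 leaves. Tm7sf2 rose by 0.82 ± 0.18 (adjusted p = 0.00362), whereas Lbr, which also ties chromatin to the nuclear envelope, was at -0.01 ± 0.12 (95% interval -0.26 to 0.24). Ebp, a sterol isomerase, was at 0.15 ± 0.11 and Sc5d, a desaturase, at 0.50 ± 0.19 (adjusted p = 0.0615). Tm7sf2 shares 532 exon bases with Vps51 on the same strand, and how reads there were counted is not known.

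None of the regulators passed on the deposited scale (0 of 5 by limma, 2 at an unadjusted p under 0.05), while Srebf2 and Insig1 did after scaling and by voom. Srebf2, the SREBP2 gene itself, was at 0.22 ± 0.12 and Scap at 0.24 ± 0.13. Insig1, an SREBP2 target that holds the SCAP complex in the ER, was at 0.39 ± 0.16 (adjusted p = 0.0753) and Insig2, its relative, at -0.38 ± 0.27. Mbtps1, the first protease to cut SREBP2, was at -0.15 ± 0.06. Mbtps1 read 5.53, 4.51, 5.22, 4.61 and 5.74 RPKM with ManfHet partners, 5.33, 5.55, 5.62, 6.16 and 5.86 RPKM with old and 5.35, 5.26, 5.59, 5.85 and 5.42 RPKM with WT partners. Young livers had Mbtps1 at 5.66, 4.95, 5.51, 5.64 and 5.51 RPKM (WT) and 5.61, 6.19, 5.76, 5.29 and 5.24 RPKM (ManfHet), so that all groups overlapped. Stard4, which moves sterol between membranes, rose from 18.4 ± 1.75 to 28.2 ± 3.31 RPKM (0.60 ± 0.16, adjusted p = 0.00950).

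Of the 15 calls, 12 held when any 1 of the 10 libraries was left out. Without replicate 2 of the old livers with ManfHet partners, the highest library for 16 genes, Fdft1 (adjusted p = 0.0567) and Lss (0.0661) no longer passed, and Dhcr7 failed in 7 of 10 omissions (up to 0.12). Mvk rose without replicate 1 of that group (adjusted p = 0.0108) and Insig1 without old-old replicate 2 (0.0323). Without replicate 5 of the ManfHet-partner group, Insig2 (-0.67, adjusted p = 0.0313) and Mbtps1 (-0.19, adjusted p = 0.0313) fell. Falls were common in that fit. More of all tested genes were lower than with no library left out (22.7%), and the median of all genes lay further below its value there (-0.14). Of the 25 genes, 8 passed when old-old replicate 4 and replicate 4 of the ManfHet-partner group were both left out. Those 2 libraries held the highest and the lowest summed Kupffer markers of their groups (558 and 60.6 RPKM). All 8 genes were higher. The drop in calls was not limited to the pathway. Without those 2 libraries, smaller shares of all tested genes rose and fell than with no library left out (0.907% and 22.7%). That alternative was chosen after seeing the data. Of 17 clock genes 0 passed in this contrast (limma, 1 at an unadjusted p under 0.05). Markers of other cell types passed, with 7 of 8 Kupffer, 5 of 7 sinusoidal endothelial, 6 of 7 stellate, 4 of 4 lymphocyte and 2 of 2 neutrophil genes lower, and 0 of 8 hepatocyte genes passed (limma, 2 at an unadjusted p under 0.05). Summed over each list, endothelial markers ran from 20.5 to 46.9 RPKM against 54.5 to 57.8, and stellate markers from 34.4 to 81.5 against 95.2 to 119, in ManfHet-partner and old-old livers. The stellate sum is mostly Dcn, at 30.4 to 115 RPKM in the 25 libraries, as no other stellate marker exceeded 5.37 RPKM. The part of the cell type markers in the difference of the sterol genes was not tested. Of these markers Ly6g, a neutrophil gene, reached 0 and at most 0.0889 RPKM; every other one was above 0 in all 25 libraries.

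**Figure D4:**
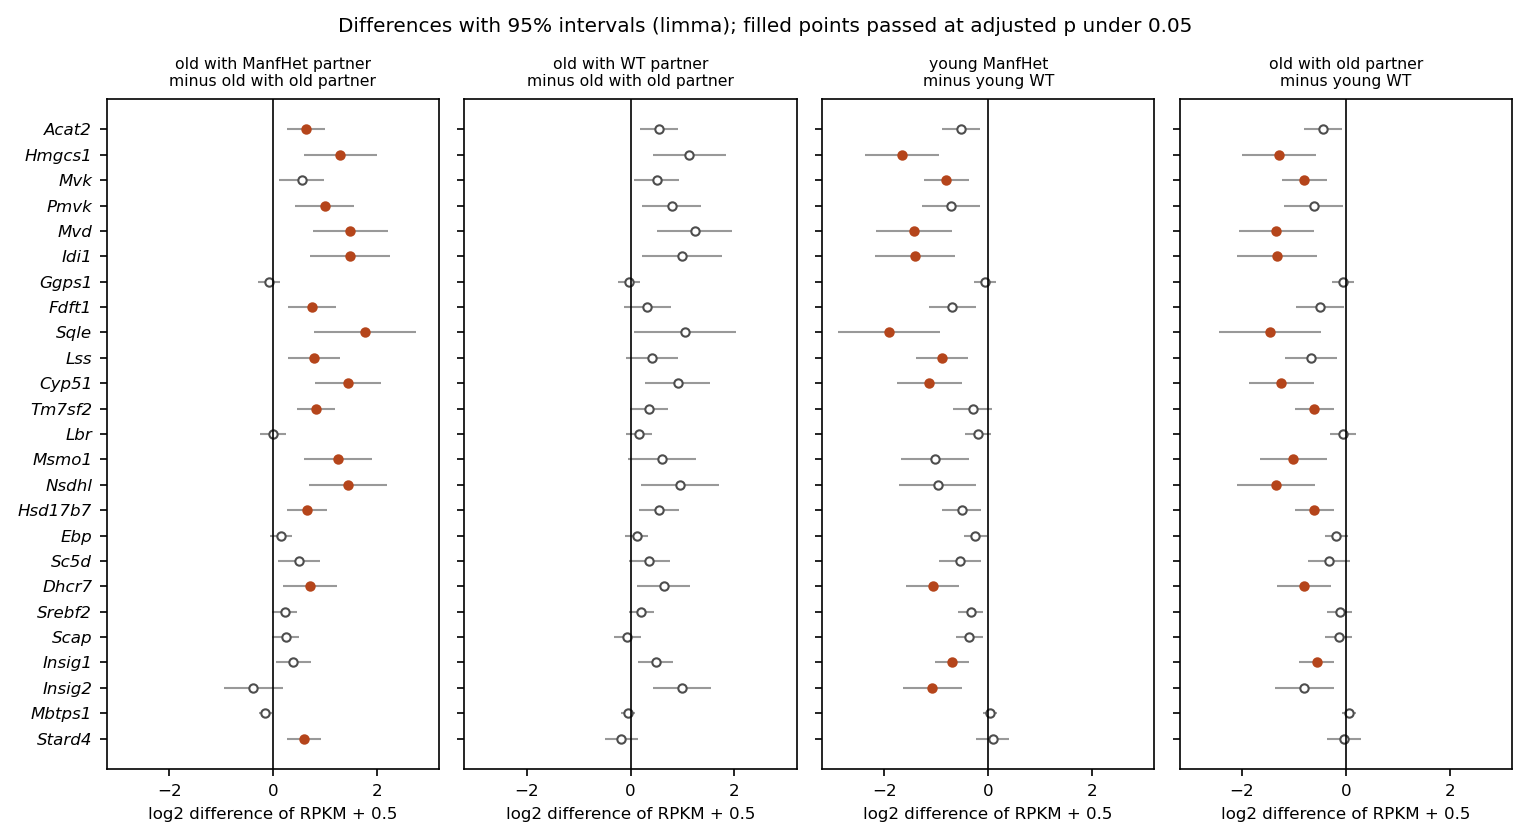
Log2 difference of each tested gene (points) with its 95% interval from limma, in 4 comparisons of groups. Filled points passed at an adjusted p under 0.05: 15 on the right in the first panel, none in the second, 10 on the left in the third and 12 on the left in the last.

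Neighbouring pathways moved in part. Of 15 tested lipogenesis genes, which respond mainly to the related factor SREBP1 and to insulin, 6 rose in the same comparison (median 0.49), where 0.907% of all tested genes rose: Thrsp by 1.56 ± 0.46, Acacb by 1.24 ± 0.43, Acss2, which supplies acetyl-CoA, by 1.07 ± 0.33, Pklr by 0.93 ± 0.34, with Elovl6 and Fads2 also passing. Of 20 genes for sterol storage, trafficking and SREBP pathway factors, Rdh11 rose by 1.07 ± 0.26 and Tmem97, which binds the cholesterol transporter of lysosomes, by 0.57 ± 0.12, and Npc2 and Erlin2 fell by 0.37 ± 0.12 and 0.28 ± 0.07, a smaller share than the 22.7% of all tested genes that fell. Of 15 genes of sterol efflux, sensing and bile acid entry, none rose and 4 fell, a share near that of all tested genes (22.7%), and the list median of -0.18 was near that of all genes (-0.14). Among them, the exporter gene Abcg1 fell by 0.88 ± 0.16, the HDL receptor gene Scarb1 by 0.58 ± 0.12, Mylip, an E3 ligase induced by sterol, by 0.53 ± 0.16 and Nr1h3, the sterol-sensing receptor LXR alpha, by 0.37 ± 0.09. The lower Kupffer, endothelial and stellate markers above move with this group, and their part in these differences was not tested.

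With WT partners the same genes lay above old-old livers by a smaller median and none passed. Of 25 tested genes 0 passed (limma, 13 at an unadjusted p under 0.05; 0 by voom), where 0.747% of tested genes rose and 0.427% fell. The median was 0.50, against -0.01 for all genes. Insig2 was nearest to the threshold, at 37.5 ± 6.92 against 18.9 ± 5.06 RPKM (0.99 ± 0.27, adjusted p = 0.0676), followed by Mvd (1.23 ± 0.35, adjusted p = 0.0745) and Hmgcs1 (1.13 ± 0.34, adjusted p = 0.0918). In Hmgcs1 and Insig2 all 5 livers lay above all old-old livers, which was so for 2.56% of genes, with 1.6% wholly below. Sqle was at 1.04 ± 0.48 with a 95% interval of 0.06 to 2.03. Without replicate 2 of the WT-partner group, lowest for 20 of the 25 genes, 3 passed (Mvd, adjusted p = 0.0206; Acat2, 0.0417; Hmgcs1, 0.0482). Over all tested genes that omission gave 102 higher and 62 lower, in place of 70 and 40. Insig2 alone passed without old-old replicate 2 (0.0467), in a fit of the groups compared only (0.0395) and with weights per library (0.0335). Clock genes moved here, 2 higher and 7 lower of 17, and their part was not tested.

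Set against each other, old livers with ManfHet and with WT partners differed in few of these genes. Of 25, Stard4 and Tm7sf2 rose and Insig2 fell with a ManfHet partner, where 3.07% of tested genes rose and 29.6% fell. After median-of-ratios scaling 837 genes were higher and 893 lower, in place of 288 and 2777, and 4 of the 25 passed. Insig2, which in mouse liver is known to fall with insulin and to follow the clock, read 13.1, 12.8, 10.4, 9.56 and 32.6 RPKM with ManfHet partners and 37.8, 30.3, 47.2, 40.8 and 31.5 RPKM with WT partners. In old-old livers Insig2 read 17.5, 24.3, 13.5, 15.2 and 24.2 RPKM. Its log2 difference was -1.36 ± 0.27 (adjusted p = 0.00135), and 4 of 5 livers lay below all WT-partner livers while the fifth lay within them.

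Stard4 read 26.1, 30.2, 32.8, 24.6 and 27.2 RPKM with ManfHet partners, 13.6, 11.2, 16.7, 23.1 and 18.8 RPKM with WT partners and 18.6, 20.6, 15.7, 18.4 and 18.6 RPKM with old partners. The first 5 livers lay above all others of the old mice, as was so for 1.44% of genes against the WT-partner group (13.7% lay wholly below). Stard4 rose by 0.78 ± 0.16 (adjusted p = 0.00139), and it and Insig2 passed in all 10 omissions of a library. Tm7sf2 read 24.4, 30.8, 30.4, 28.9 and 24.4 RPKM with ManfHet partners and 17.6, 14.3, 22.7, 24.96 and 21.4 RPKM with WT partners, which overlap. With old partners Tm7sf2 read 20.2, 15.3, 9.94, 17.6 and 15.9 RPKM, all below the ManfHet-partner livers. Its rise by 0.47 ± 0.18 (adjusted p = 0.0468) failed in 7 of 10 omissions (up to 0.144). For Sqle the difference was 0.73 ± 0.48 (95% interval -0.26 to 1.71) and for Hmgcs1 0.17 ± 0.34 (-0.54 to 0.87); both intervals include 0. Without replicate 4 of the WT-partner group, highest for 19 of 25 genes, 6 passed. Of 17 clock genes 12 were higher and 3 lower in this comparison. Of hepatocyte genes 3 of 8 were higher (Alb by 1.09 ± 0.27). Of other cell types 7 of 8 Kupffer, 6 of 7 endothelial, 6 of 7 stellate and 2 of 2 neutrophil genes were lower. Of lymphocyte genes 0 of 4 passed (limma, 1 at an unadjusted p under 0.05). Of 15 lipogenesis genes 2 rose, and of 20 storage and trafficking genes 3 rose and 4 fell. Of 15 efflux and bile acid genes 0 rose and 4 fell, where 29.6% of all tested genes fell. The part of these lists was not tested.

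In the young partners the pathway was lower with the ManfHet genotype. Of 25 genes 0 rose and 10 fell, where 3.72% of tested genes rose and 1.41% fell, and the median was -0.70 against 0.05 for all genes. Hmgcs1 fell from 70.1 ± 24.5 to 21.8 ± 7.69 RPKM (by 1.66 ± 0.34, adjusted p = 0.00810). Sqle fell by 1.91 ± 0.48 (adjusted p = 0.0235), Mvd by 1.43 ± 0.35, Idi1 by 1.40 ± 0.37 and Mvk by 0.80 ± 0.21. Cyp51 fell by 1.14 ± 0.30, Dhcr7 by 1.07 ± 0.25 and Lss by 0.89 ± 0.24. In Hmgcs1, Mvk and Insig1 all ManfHet livers lay below all WT livers, which was so for 1.49% of genes, with 3.17% wholly above. Median-of-ratios scaling left 10 of the 25 passing and gave 215 genes higher and 234 lower over the table, in place of 349 and 132.

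Both INSIG genes fell with the ManfHet genotype. Insig1 read 80.5, 76.4, 91.5, 66.7 and 65.2 RPKM in young WT and 41.4, 44.8, 48.1, 43.9 and 54.0 RPKM in young ManfHet livers (fell by 0.70 ± 0.16, adjusted p = 0.0151). Insig2 read 37.2, 35.1, 28.8, 38.4 and 24.7 RPKM and 29.3, 12.5, 11.2, 11.4 and 16.7 RPKM, with 1 ManfHet liver among the WT livers (fell by 1.08 ± 0.27, adjusted p = 0.0250). Srebf2 read 5.09, 6.39, 6.94, 4.93 and 6.74 RPKM in young WT and 4.59, 3.81, 5.75, 4.08 and 5.04 RPKM in young ManfHet livers, overlapping (-0.34 ± 0.12, adjusted p = 0.0807). Scap read 14.0, 13.7, 12.1, 12.9 and 15.7 RPKM and 8.76, 10.7, 10.22, 9.90 and 13.3 RPKM (-0.36 ± 0.13, adjusted p = 0.0890). Stard4 was at 0.09 ± 0.16 (95% interval -0.24 to 0.41), and Mbtps1 at 0.04 ± 0.06.

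Hmgcs1 and Insig1 passed in all 10 omissions, and the other 8 calls in 3 to 7. The count of genes that fell was 2 without young WT replicate 2 or young ManfHet replicates 2 or 4, 4 without young WT replicate 3 and 6 without young ManfHet replicate 1. Omitting the filter, which adds genes to the test, gave 4. Calls over all tested genes were 349 higher and 132 lower in the main fit. They were 93 and 47 without young WT replicate 2 and 163 and 75 without its replicate 3. Without young ManfHet replicate 2 they were 106 and 61, and 117 and 47 without its replicate 4. They were 383 and 159 without young ManfHet replicate 1, and 203 and 76 with no filter. Of other lists, 0 of 15 lipogenesis genes (limma, 3 at an unadjusted p under 0.05; median 0.01) and 0 of 15 efflux and bile acid genes (3 unadjusted) passed. Of the storage and trafficking list Rnf145, which encodes a ligase of sterol regulation, rose by 0.80 ± 0.16, Npc1, the lysosomal cholesterol transporter gene, by 0.61 ± 0.17 and Stard5 by 0.44 ± 0.12, while Rdh11 fell by 0.94 ± 0.26. No list of other liver cell types had a gene that passed (0 of 8 Kupffer, 7 endothelial, 7 stellate, 4 lymphocyte and 2 neutrophil genes by limma, with 2 unadjusted in the last). Clock genes moved with it, 10 higher and 3 lower of 17. Dbp, a clock output gene, read 6.22 to 23.1 RPKM in young WT and 27.3 to 46.6 RPKM in young ManfHet livers, and its part was not tested.

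Old-old livers were likewise below young WT livers. Both groups had an old partner. The contrast shares its groups with the comparisons above. Of 25 genes 0 rose and 12 fell, where 9.11% of tested genes rose and 1.74% fell, and the median was -0.61 against 0.08 for all genes. Nsdhl fell from 26.5 ± 5.84 to 10.8 ± 3.98 RPKM (by 1.34 ± 0.36, adjusted p = 0.0213). Sqle fell by 1.47 ± 0.48 (adjusted p = 0.0495), Mvd by 1.34 ± 0.35, Idi1 by 1.32 ± 0.37, Hmgcs1 by 1.29 ± 0.34 and Mvk by 0.80 ± 0.21. After lanosterol, Cyp51 fell by 1.24 ± 0.30, Msmo1 by 1.01 ± 0.32, Dhcr7 by 0.81 ± 0.25, Hsd17b7 by 0.61 ± 0.18 and Tm7sf2 by 0.60 ± 0.18. In 7 genes all old-old livers lay below all young WT livers, as did 1.29% of tested genes, with 6.16% wholly above. With median-of-ratios scaling 12 of the 25 passed, and 383 genes were higher and 388 lower, in place of 854 and 163.

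Among the regulators Insig1 fell by 0.56 ± 0.16 (old-old livers 57.3, 66.5, 45.4, 47.3 and 41.7 RPKM), and Insig2 was at -0.80 ± 0.27 (adjusted p = 0.0597) with all 5 livers below the young WT livers. Srebf2 read 5.42, 4.84, 5.08, 6.81 and 5.30 RPKM in old-old livers (-0.12 ± 0.12, 95% interval -0.36 to 0.12). Scap read 13.8, 10.1, 11.1, 13.4 and 13.6 RPKM there (-0.14 ± 0.13).

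Calls in this contrast changed with single libraries. Cyp51 passed in all 10 omissions, Mvd in 9 and Sqle in 2, and Sqle also failed in 7 of 9 other settings. The count was 1 without young WT replicate 3, 5 without replicate 2 and 7 without replicate 1 of that group, and 4 without old-old replicate 3 and 5 without replicates 4 or 5. Old-old replicate 3 was the lowest of its group for 19 of 25 genes. With weights per library 7 passed, and 4 without old-old and ManfHet-partner replicates 4. The storage and trafficking list had 4 genes higher (Rnf145 by 0.90 ± 0.16, Npc1 by 0.55 ± 0.17, Npc2 by 0.54 ± 0.12 and Soat2, which esterifies cholesterol, by 0.51 ± 0.15). In the lipogenesis list Srebf1 rose by 0.62 ± 0.19, and among efflux and bile acid genes Cyp7b1 fell by 1.07 ± 0.25 and Lcat rose by 0.27 ± 0.08. Clock genes moved here too (9 higher and 3 lower of 17), as did 4 of 7 stellate and 2 of 4 lymphocyte markers, all higher in old-old livers. Their part was not tested.

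In the ManfHet pairs the old and young livers differed as groups, with no matching of individual partners, which the labels do not give. Of 25 genes 14 rose and 0 fell in old livers with ManfHet partners against young ManfHet livers, where 0.907% of tested genes rose and 4.64% fell. The median was 0.72 against -0.13 for all genes, and 13 genes lay wholly above (0.715% of all tested genes, with 5.75% wholly below). Median-of-ratios scaling gave 15 of the 25, with 84 genes higher and 17 lower over the table in place of 85 and 435. Sqle rose by 2.21 ± 0.48 (adjusted p = 0.0209), from 3.05 ± 2.75 to 13.6 ± 7.32 RPKM. Hmgcs1 rose by 1.68 ± 0.34 (adjusted p = 0.0166), Mvd by 1.57 ± 0.35, Idi1 by 1.56 ± 0.37, Pmvk by 1.10 ± 0.27 and Acat2 by 0.73 ± 0.18. Of the later enzymes, Cyp51 rose by 1.34 ± 0.30, Msmo1 by 1.27 ± 0.32, Lss by 1.02 ± 0.24, Dhcr7 by 0.97 ± 0.25, Fdft1 by 0.94 ± 0.22 and Sc5d by 0.72 ± 0.19.

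Srebf2 and Scap rose as well. Srebf2 read 5.67, 8.64, 6.38, 6.04 and 5.88 RPKM in the old livers (rise of 0.44 ± 0.12, adjusted p = 0.0349), which overlap the young ManfHet livers by 1 library of each group. Scap read 14.8, 14.8, 15.3, 14.3 and 14.2 RPKM (rise of 0.47 ± 0.13, adjusted p = 0.0394), all above the young ManfHet livers. Insig1 read 62.0, 67.8, 67.2, 51.4 and 93.2 RPKM (0.53 ± 0.16, adjusted p = 0.0525). Insig2 was at -0.10 ± 0.27 (95% interval -0.66 to 0.47).

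No gene passed in all 10 omissions. The count was 0 without young ManfHet replicates 2 or 4 and 1 without young ManfHet replicate 1 or replicate 2 of the old group, while it was 3 and 8 without replicates 4 and 3 of the old group. Omitting the filter gave 8, and leaving out both old-old and ManfHet-partner replicates 4 gave 2. The fitted differences moved less, from 1.88 to 2.59 for Sqle over the omissions and from 1.39 to 1.87 for Hmgcs1. Of 17 clock genes 0 passed (limma, 0 at an unadjusted p under 0.05), and 1 of 8 Kupffer genes was lower (Clec4f, by 0.75 ± 0.22) and Alb higher by 1.24 ± 0.27; their part was not tested.

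In the WT pairs the old and young livers were not shown to differ. Of 25 genes 0 passed (limma, 0 at an unadjusted p under 0.05; 0 by voom), where 0.117% of tested genes rose and 0% fell, and the median was -0.15 against 0.08. None of the 25 lay wholly above or below, as 2.61% and 0.171% of genes did. Sqle was at -0.42 ± 0.48 (95% interval -1.41 to 0.57) and Hmgcs1 at -0.15 ± 0.34 (-0.86 to 0.55). Srebf2 read 6.56, 6.11, 6.33, 6.12 and 6.68 RPKM in old livers with WT partners, the narrowest spread of this gene in any group, and Scap 10.04, 10.4, 9.83, 17.5 and 12.3 RPKM. Insig1 read 55.1, 53.9, 90.1, 78.7 and 87.7 RPKM there, overlapping the young WT livers.

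**Figure D5:**
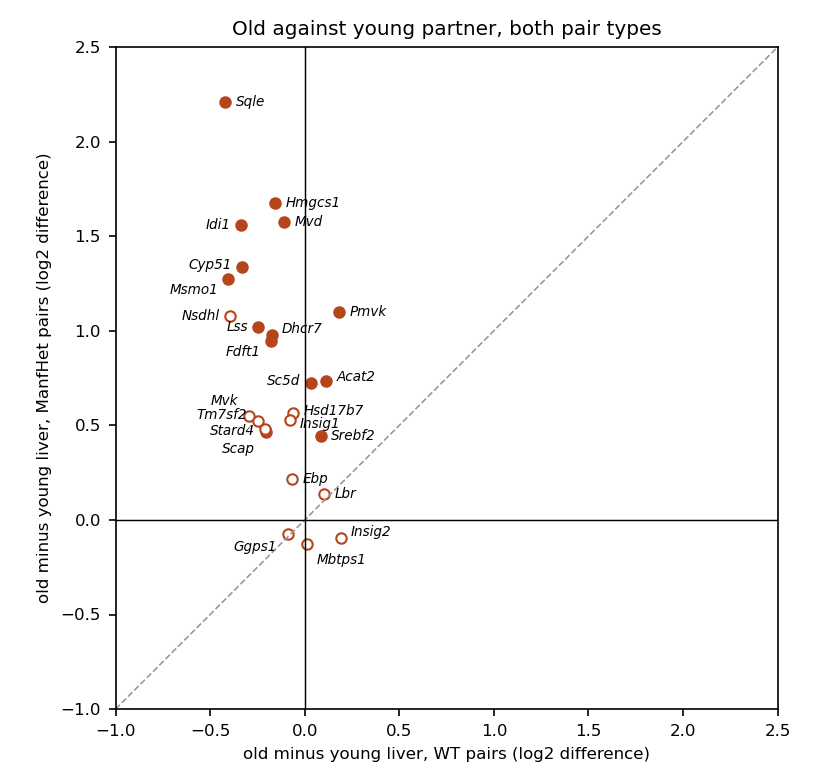
Log2 difference of old minus young liver for each tested gene in ManfHet pairs (vertical axis) against the same difference in WT pairs (horizontal axis), 5 livers per group; filled points passed in the ManfHet pairs and none passed in the WT pairs. Sqle sits at 2.21 on the vertical and -0.42 on the horizontal axis, and Insig2, Mbtps1 and Ggps1 sit near 0 on both.

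The difference between the pair types was tested directly as an interaction, the old-minus-young difference in ManfHet pairs minus that in WT pairs. Of 25 genes 0 passed (limma, 20 at an unadjusted p under 0.05; 0 by voom). Over all tested genes 0% passed higher and 0.0107% lower, with 2937 of 9372 at an unadjusted p under 0.05. The median of the 25 genes was 0.77 against -0.21. Sqle was at 2.63 ± 0.68 (95% interval 1.24 to 4.03, adjusted p = 0.0641) and Hmgcs1 at 1.83 ± 0.48 (adjusted p = 0.0641). Cyp51, Lss, Msmo1 and Scap had the same adjusted p, with differences of 1.67 ± 0.43, 1.27 ± 0.34, 1.68 ± 0.45 and 0.67 ± 0.18. With weights per library 15 genes passed. Without replicate 4 of the WT-partner group, young ManfHet replicate 5 or replicate 5 of the ManfHet-partner group, 15, 10 and 9 passed. All of these were higher. The shift was not limited to these genes. In each of these fits many more of all tested genes passed than in the main fit, most of them lower. The old-minus-young difference was thus not shown to differ between the pair types in the fit of all 25 libraries.

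Within groups the enzymes varied together from liver to liver. After the group mean was taken off, the log2 level of Idi1 correlated at 0.95 with the mean of the other tested genes over 25 libraries, Cyp51 at 0.949, Hmgcs1 at 0.923 and Acat2 at 0.917. Sqle was at 0.870, Stard4 at 0.70, Insig1 at 0.568 and Srebf2 at 0.554. Ggps1 (0.0126), Insig2 (0.0478) and Mbtps1 (-0.170) did not follow. These are descriptions, and the points share library, depth and scaling. Sqle had the widest spread within groups, an SD of 0.81 on the log2 scale, higher than 99.2% of tested genes, and Nsdhl and Idi1 were above 98.1 and 98.2% of tested genes. Mbtps1 had an SD of 0.09, above 4.83% of them. The spread came with whole libraries: old-old replicate 3 was lowest of its group for 19 of 25 genes, young WT replicate 4 for 18, young ManfHet replicate 2 for 16 and WT-partner replicate 2 for 20. WT-partner replicate 4 was highest for 19 and ManfHet-partner replicate 2 for 16. Of the genes outside the list, those most like the mean of the 25 included Rdh11 (0.928), Erg28 (0.823), a scaffold protein of the sterol demethylation enzymes in yeast, Echdc1 (0.798), Acss2 (0.786), Acsl5 (0.731), Aldoc (0.729) and Mmab (0.725).

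Of the untested genes, Fdps, which makes farnesyl pyrophosphate, had 18 to 164 reads per library. Fdps averaged 0.901 ± 0.325 RPKM in old livers with ManfHet partners and 0.438 ± 0.179 RPKM in old-old livers, a difference of 0.57 ± 0.22 with no filter (adjusted p = 0.0763). It shares 1124 exon bases on the same strand with Gm43738, so its level is uncertain. Mbtps2, the second protease to cut SREBP2, read 0.327, 0.524, 0.532, 0.476 and 0.513 RPKM with ManfHet partners and 0.558, 0.559, 0.601, 0.781 and 0.793 RPKM in old-old livers. Mbtps2 read 0.579, 0.666, 0.626, 0.437 and 0.598 RPKM with WT partners, 0.577, 0.549, 0.481, 0.535 and 0.376 RPKM in young WT and 0.554, 0.548, 0.620, 0.604 and 0.526 RPKM in young ManfHet livers. The ManfHet-partner livers lay below all old-old livers, as was so for 12.2% of tested genes, and overlapped the other groups. Mbtps2 shares 2867 exon bases with Yy2 on the same strand. With no filter its difference from old-old livers was -0.25 ± 0.08 (adjusted p = 0.0275). Falls were common in this comparison, with 22.7% of tested genes lower under the filter and a larger number of genes lower without it. Npc1l1, the sterol importer of the gut and, in humans, of hepatocytes, had 0 to 4 reads per library. Of the gut markers, Vil1 read 0.0345 to 0.327 RPKM and Fabp2 16.9 to 58.6 RPKM in the 25 libraries, and Alpi had no values.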

How the data were processed

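The authors deposited one table of RPKM values for 25 liver libraries (Trizol, TruSeq Stranded mRNA LT). The submitters' processing notes name STAR 2.4.2a, HTSeq and the build mm10; how the deposited RPKM were scaled and the strand setting of the counting are not given in the sources used here. Of 60354 rows, 24132 held values and 36222 a name only. Whole reads were recovered for 17837 of 17838 genes (tolerance 0.02 reads).

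The log2 values (0.5 added to each RPKM) of the deposited table entered limma 3.58.1 under R 4.3.3, in 1 model of 5 groups with 20 residual degrees of freedom and an intensity trend, over the 9372 genes that reached 1 RPKM in 5 or more libraries. P-values were adjusted by Benjamini-Hochberg over these genes, with a threshold of 0.05. Such differences understate changes of low genes. The series' design text gives 5 animals for each condition, so the 5 samples of a group were taken as separate mice. In all, 7 comparisons and 1 interaction were made, and several share groups, so they are not independent of each other. The fit was tested on simulated data. Positions and overlaps are from GENCODE M21, promoters from RefSeq, and plots used matplotlib 3.10.9 in Python 3.11.15 (pandas 2.3.3; numpy 2.4.6).

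The genes, the other gene lists (lipogenesis, fasting, sterol efflux and bile acids, storage and trafficking, clock, and markers of 8 cell types), the tests and the alternatives were chosen with earlier results of these data known. All 28 genes were named; values of every library are given for the regulators and for up to 2 genes with the largest passing difference in each direction of a comparison, and of other lists up to 4 passing genes, and 8 genes most like the mean. Some genes that these rules select are not reported here. Alternatives covered the added constant (0.1 and 1), the filter (none, or 5 RPKM), scaling, the groups in the model, weights, voom on recovered reads, a replicate block and each library left out.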

Additional observations from a re-analysis of the deposited data

Results flagged for a closer look

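Of 140 sets of 5 livers (28 genes in 5 groups), 16 held 1 library that stood far from the other 4, by Dixon's ratio of gap to range with a critical value of 0.71. Chance flags about 5% of such sets. The 28 genes vary together, so the flags are not independent.

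Old-old replicate 3 accounted for 7 of them, in each case as the lowest library: Pmvk at 9.4 RPKM (others from 18.1), Sqle at 0.916 (others from 3.59), Cyp51 at 6.16 (others from 13.6), Nsdhl at 3.71 (others from 11.9), Hsd17b7 at 3.97 (others from 5.39), Sc5d at 30.8 (others from 55.3) and Dhcr7 at 4.52 RPKM (others from 7.26). Young WT replicate 4 was low for Cyp51, at 15.8 RPKM (others from 32.1), young WT replicate 1 was high for Ebp, at 92.3 RPKM (others to 67.9), and young WT replicate 2 was low for Mbtps1, at 4.95 RPKM (others from 5.51). Among old livers with WT partners, replicate 4 was high for Ebp, at 81.0 RPKM (others to 65.6).

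Among old livers with ManfHet partners, replicate 2 was high for Srebf2, at 8.64 RPKM (others to 6.38), replicate 5 was high for Insig2, at 32.6 RPKM (others to 13.1), and replicate 1 was low for Mbtps2, at 0.327 RPKM (others from 0.476). Npc1l1 was flagged at 0.0351 RPKM in WT-partner replicate 5 and at 0.00829 RPKM in ManfHet-partner replicate 4, levels of a few reads at most.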

How the results depend on the processing

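No difference that passed changed direction under any alternative, and 102 of 3009 pairs of values that did not pass had opposite signs. Counts of genes that passed are given here where they moved by over 1.5 times; the cause was not tested, beyond more genes in the test with no filter and fewer libraries in an omission. Old livers with ManfHet partners against old-old livers had 15 genes (all higher), 14 to 19 under the planned settings, 12 to 16 with a library left out and 8 without old-old and ManfHet-partner replicates 4. All were higher except 1 lower beside 14 higher with no filter, and 2 lower beside 14 higher without ManfHet-partner replicate 5. WT partners against old-old livers had 0, 1 with only the groups compared, 1 with weights and 0 to 3 with a library left out. ManfHet against WT partners had 3, and 2 to 6, with 1 lower in each. Young ManfHet against young WT livers had 10, 4 with no filter and 2 to 14. Old-old against young WT livers had 12, 7 with weights, 4 without both replicates 4 and 1 to 13. Old livers with ManfHet partners against young ManfHet livers had 14, 8 with no filter, 20 with weights, 2 without both replicates 4 and 0 to 17. The interaction had 0, 15 with weights and 0 to 15. The labels do not say that replicate numbers pair the samples, and correlations of deviations between same-numbered livers were not all above 0.1 in any comparison (-0.527 to 0.274). They came nearest in the WT pairs (0.0766 to 0.274, 4 of 5 above 0.1), where replicates 2, 3 and 5 matched their own number best. With the number as a replicate block the counts in the order above were 14, 0, 2, 7, 9, 11 and 0, and 0 for the WT pairs. Scaling moved counts over all genes more than counts of these genes. Low counts limited Fdps, Mbtps2 and Npc1l1.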

Other observations

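Genes induced by fasting, many of them controlled by PPAR alpha, glucagon or insulin, passed in small numbers, in either direction. Of 14 tested, Angptl4, an inhibitor of lipoprotein lipase, rose in old livers with ManfHet partners against old-old livers (0.79 ± 0.29, limma adjusted p = 0.0472), where 0.907% of all tested genes rose, and the median was 0.30 against -0.14 for all genes. Pdk4, which restrains glucose oxidation, rose in old livers with WT partners against old-old livers (0.76 ± 0.15) and was lower in ManfHet-partner than in WT-partner livers (fell by 1.13 ± 0.15), where Cyp4a10 (1.64 ± 0.53) and Angptl4 (0.86 ± 0.29) rose and G6pc, the last enzyme of glucose output, fell by 1.46 ± 0.45. These 2 higher and 2 lower of 14 stand beside 3.07% of all tested genes higher and 29.6% lower. In young livers Pdk4 fell with the ManfHet genotype by 0.66 ± 0.15, and against young WT livers Angptl4 was lower in old-old livers by 0.88 ± 0.29. Between partners 0 of 14 passed in the WT pairs (limma, 2 at an unadjusted p under 0.05) and 0 of 14 in the ManfHet pairs (3 unadjusted).

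Not every list is given for every comparison above. In the cholangiocyte list 1 of 5 markers was tested. This gene, Spp1, fell in ManfHet-partner against WT-partner livers by 0.67 ± 0.25, where 29.6% of all tested genes fell. For the enterocyte list 1 of 3 genes was tested, with 0 passing in the 7 comparisons.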
